A study of Zea mays with 12 samples.

Results

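The genes examined were c1, pl1, r1, bz1 and a1, 5 loci of the maize anthocyanin pathway, chosen by name and placed on the deposited replication timing map by symbol or synonym. All 5 were found, among 33146 protein-coding genes with a timing class. The reference table lists a1 under its own symbol and the other 4 as synonyms, r1 under the symbol R-S. Each gene was given the class of the segment at its midpoint, together with the length of that segment, the distance to its nearest boundary and the classes within 500 kb on both sides.

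The map comes from root tips of the inbred line B73 (the genotype in every library), taken as the terminal 1 mm of roots of seedlings grown for 3 days. All seedlings were given 25 µM EdU, a thymidine analogue that enters newly made DNA, for 20 min and then 100 µM thymidine. Flow sorting on EdU signal and DNA content gave nuclei in early S, mid S and late S, from which labelled DNA was immunoprecipitated, and into G1, sequenced without immunoprecipitation as the reference. There were 3 biological replicates in each of the 4 groups, 12 libraries in all. The deposited file is a single segmentation in windows of 10 kb with no value per library, so sequencing depth is unknown, the spread between replicates cannot be given and no test over samples was possible. The classes are ES, MS and LS, read as early, mid and late S, and ESMS and MSLS for neighbouring stages. The order of the classes is ES, ESMS, MS, MSLS and LS.

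Anthocyanins are the red and purple flavonoid pigments of the maize kernel and plant. Their synthesis is switched on by a complex of an R2R3-MYB factor, encoded by c1 in the aleurone and by its duplicate pl1 in the plant body, with a bHLH factor, encoded by r1 or its relatives. The complex activates the structural genes, among them a1, which encodes dihydroflavonol 4-reductase, and bz1, which encodes the UDP-glucose flavonoid glucosyltransferase that adds glucose to the pigment. The activity of these genes was not measured here: the file records only when in S phase the DNA around them was copied in root tip cells.

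The 5 genes lay on the early side of the map. The regulators c1, pl1 and r1 and the glucosyltransferase gene bz1 were in ES, and the reductase gene a1 was in ESMS, the next class. That is 4 of 5 in ES, beside 54.8% of all classified protein-coding genes, 1 of 5 in ESMS, beside 11.8%, and 5 of 5 in either class, beside 66.6%. None was in MS, MSLS or LS, which hold 24.3%, 4.22% and 4.86% of all. A share over 5 genes is coarse, and no test was run on it. Within 500 kb of any of the 5 there was no MSLS and no LS sequence. Of all protein-coding genes in ES 10.5% had LS within that distance, and of those in ESMS 26.1% did. These shares, and the LS distances below, are set beside the whole genome and not beside genes near chromosome ends. No such share was computed for MSLS. The nearest LS segment was 3.91 Mb from c1, 5.91 Mb from bz1, 6.95 Mb from pl1, 7.03 Mb from r1 and 16.2 Mb from a1, where the median was 5071 kb over ES genes and 1777 kb over ESMS genes. a1 was farther from LS than 90.9% of ESMS genes, whereas the 4 ES genes were close to the middle of their class, with 43.6% to 58.7% of ES genes nearer to LS. For a1 the distance to LS, 16.2293 Mb, is almost that to the end of the mapped chromosome, 16.2371 Mb. The nearest LS was the last window of the chromosome, shorter than 10 kb, and the rank of a1 rests on that window.

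Most of the 5 sat towards chromosome ends, where early replication is common in this map. The midpoint of c1 lay at 6.82% and that of bz1 at 8.05% of the length of chromosome 9, counted from the first base, that of r1 at 92.6% of chromosome 10 and that of a1 at 93.2% of chromosome 3. Among protein-coding genes in the first or last 10% of a chromosome 78.9% were in ES, against 42.6% in the middle 80%. The 3 of these 4 genes in ES are therefore set beside 78.9%, not beside the share of the whole genome. pl1 was the exception, at 66.1% of chromosome 6. Of the 319 classified protein-coding genes between 60% and 70% of that chromosome 46.1% were in ES.

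**Figure D1:**
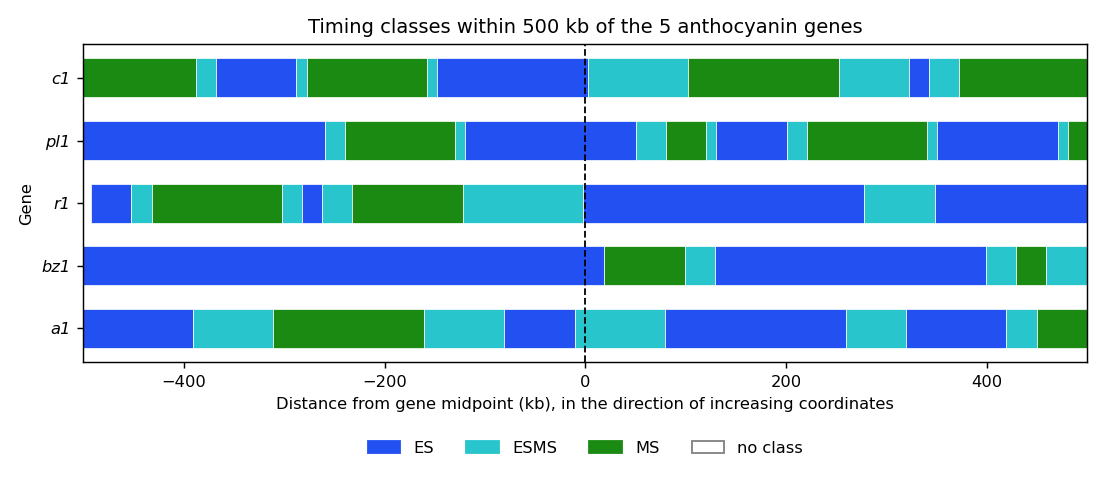
Timing class along 500 kb on both sides of the midpoint of each gene (x axis, kb, increasing coordinates to the right), 1 row per gene, coloured by class. The dashed line marks the midpoint: c1 and r1 lie at the edge of an ES segment, pl1 inside one, bz1 near the higher end of a long one, and a1 in an ESMS segment between ES segments.

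c1, the MYB regulator of kernel pigment, was at the edge of a small early island. Its ES segment ran from 10970001 to 11120000 on chromosome 9 and was 150 kb long, and 23.5% of protein-coding genes in ES lay in shorter segments, against a median of 350 kb. The midpoint of c1 was 148 kb from the lower boundary and 2.23 kb from the higher one, closer to a boundary than all but 1.63% of ES genes. This distance is below the 10 kb window of the map, and 7.58% of ES genes had a boundary nearer than 10 kb. Beyond the higher boundary lay 100 kb of ESMS and then 150 kb of MS, and beyond the lower boundary 10 kb of ESMS and 120 kb of MS. With ESMS counted as early, the island was 260 kb long.

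The surroundings of c1 had the least early sequence of the 5. Within 500 kb on both sides ES took 25.0% of classified sequence, ESMS 24.0% and MS 51.0%, where the median share of ES was 65.6% over ES genes and 41.0% over all classified protein-coding genes. Only 10.8% of ES genes had a lower share. The sides differed: ES took 45.6% of the 500 kb at lower coordinates and 4.45% of the 500 kb at higher coordinates. There were 12 class boundaries in the 1 Mb around c1, against a median of 8 for ES genes. Of the 18 other protein-coding genes there, 7 were in ES, 5 in ESMS and 6 in MS, and 4 of them shared the segment of c1.

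pl1, the duplicate of c1 that acts in the plant body, lay well inside an island of similar size. Its ES segment on chromosome 6, from 119820001 to 119990000, was 170 kb long, and its midpoint was 120 kb from the lower and 50.3 kb from the higher boundary. In ES 38.8% of genes were nearer to a boundary and 27.6% were in shorter segments. ESMS of 10 kb and 30 kb flanked the island, followed by MS of 110 kb and 40 kb, so with ESMS counted as early it came to 210 kb. The region alternated between classes, with 14 boundaries in 1 Mb, more than around 89.8% of ES genes. ES islands of 260 kb, 170 kb, 70 kb and 120 kb followed each other, separated by MS of 110 kb, 40 kb and 120 kb with ESMS between. ES took 60.0% within 500 kb, MS 29.0% and ESMS 11.0%. The region held 15 other protein-coding genes, the fewest around any of the 5, and 13 of them were in ES.

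The MYB duplicates therefore had the same class and segments of 150 kb and 170 kb but differed in position within them and in their surroundings. Of 101 windows of 10 kb compared at equal distance from both midpoints, 39 carried the same class (38.6%). Over protein-coding genes with a given symbol, more than 1 Mb away, the median share was 31.7% for c1 and 34.4% for pl1. The share of the duplicates was thus only a little above these medians. Over the 10 pairs of the 5 genes the share of identical windows ran from 19.0% for c1 with r1 to 50.5% for pl1 with bz1. The MYB duplicates were therefore not the most alike pair. Windows next to each other in 1 segment are not independent, and the shares are a description.

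r1, which encodes the bHLH partner, was cut by a class boundary. Its ES segment on chromosome 10 ran from 141190001 to 141470000, a length of 280 kb, against the ES median of 350 kb. The midpoint was 2.13 kb from the lower boundary, and 1.56% of ES genes were nearer to one. At the 10 kb resolution of the map, 7.58% of ES genes had a boundary nearer than 10 kb. The gene model is 9395 bp long: 6825 bp of it, or 72.6%, lay in ES and 2570 bp, or 27.4%, in the ESMS segment below. Among all classified protein-coding genes 4.34% had their ends in different classes, and among genes in ES 2.18% did. r1 is a long gene, as 87.9% of ES genes are shorter, and of the 2201 ES genes at least as long 9.31% were cut in this way. Boundaries fall on a grid of 10 kb, so the point inside r1 at which timing changes is not resolved.

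The sides of r1 differed more than those of any other of the 5 genes. At higher coordinates 86.0% of the 500 kb was ES and 14.0% ESMS, with no MS, since the 280 kb segment was followed by 70 kb of ESMS and an ES segment of 860 kb. At lower coordinates ES took 12.6%, ESMS 38.6% and MS 48.8% of classified sequence, beginning with 120 kb of ESMS and 110 kb of MS. Over both sides ES came to 49.6% of the 992 kb classified. With ESMS counted as early, r1 lay in a domain of 1.34 Mb, longer than that of 78.9% of ES genes and the longest of the 5. The 1 Mb around it held 32 other protein-coding genes, the most of the 5 and more than around 81.9% of all classified genes, of which 19 were in ES, 8 in ESMS and 5 in MS.

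bz1, the glucosyltransferase gene, was in the longest ES segment of the 5, 780 kb from 12360001 to 13140000 on chromosome 9. In ES 72.7% of genes lay in shorter segments. The gene was near the higher end, 761 kb from the lower boundary and 18.7 kb from the higher one, and 14.7% of ES genes were nearer to a boundary. The segment touched MS directly on both sides, 70 kb below and 80 kb above, with no ESMS between. Of the 3179 ES segments of the map 56 (1.76%) had MS on both sides, and they held 1.57% of ES genes. For comparison, 65.8% of ES segments had ESMS on both sides, as those of c1, pl1 and r1 did, and they held 55.4% of ES genes. As a result bz1 was 18.7 kb from MS, where the median ES gene was 123 kb away and 2.62% were nearer. At lower coordinates the whole 500 kb was ES. At higher coordinates ES took 57.7%, MS 22.0% and ESMS 20.3%. Over both sides the share of ES was 78.9%, the highest of the 5, where the median was 65.6% over ES genes and 64.7% of them had a lower share. Of the 24 other protein-coding genes within 500 kb 23 were in ES.

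The ES segment of bz1 also held sh1, the sucrose synthase gene of the endosperm that is linked to c1 and bz1 on the classical map, 280 kb below bz1 with no boundary between them. It held stc1, a sesquiterpene cyclase gene 29.4 kb below bz1, and the ribosomal protein gene rpl35A, 34.8 kb below. These landmarks were picked from the classical map and from the known neighbours of bz1, with their classes partly known from earlier results.

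a1, the reductase gene, was the single member outside ES. Its ESMS segment on chromosome 3 was 90 kb long, from 221770001 to 221860000, and 82.3% of ESMS genes lay in shorter segments, against a median of 50 kb. The midpoint was 10.7 kb from the lower and 79.3 kb from the higher boundary, close to the ESMS median of 10.3 kb for the nearest boundary. The segment was enclosed by ES, 70 kb below and 180 kb above. Of ESMS genes 7.99% lay in segments enclosed by ES, 38.8% in segments enclosed by MS and 51.7% between different classes. a1 was 161 kb from the nearest MS, farther than 95.2% of ESMS genes, for which the median was 17.1 kb. With ESMS counted as early the surrounding domain was 610 kb long, longer than that of 92.0% of ESMS genes. The nearest MS lies at the edge of this domain, so its distance and the domain length are not independent. Both ranks are over ESMS genes of the whole genome and not over those near chromosome ends.

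Within 500 kb of a1 ES took 45.9%, ESMS 34.0% and MS 20.1%. The share of ES exceeded that around 72.6% of ESMS genes, whose median was 28.9%, and lay below the median of 65.6% for ES genes. The share of ESMS was the highest of the 5. The x1 gene, 49.4 kb above a1, was in the same ESMS segment. sh2, which encodes the large subunit of ADP-glucose pyrophosphorylase in the endosperm and is closely linked to a1, lay 117 kb above it in the next ES segment, of 180 kb, so a class boundary separates a1 from sh2. Of the 26 other protein-coding genes in the 1 Mb around a1, 15 were in ES, 6 in ESMS and 5 in MS.

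**Figure D2:**
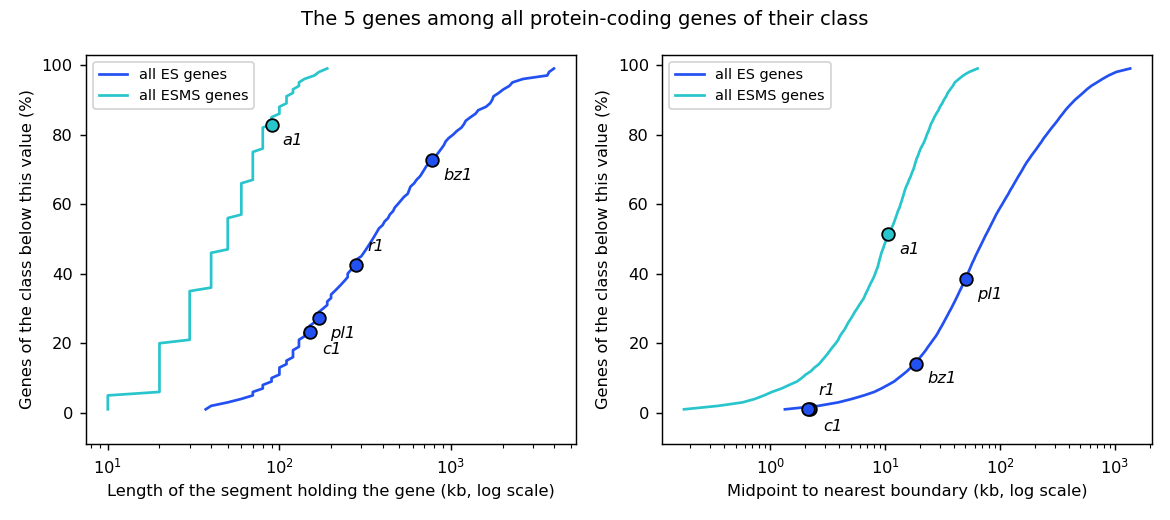
Cumulative share (y axis, %) of all protein-coding genes in ES (blue) and in ESMS (cyan) against the length of the segment holding the gene (left, kb, log scale) and the distance from the midpoint to the nearest boundary (right, kb, log scale), with the 5 genes as points on the curve of their class. In length the 4 ES genes run from 150 kb to 780 kb around the median of 350 kb, and in distance c1 and r1 lie at the low end at 2.23 kb and 2.13 kb.

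Ordered by distance to a boundary, r1 and c1 came first at 2.13 kb and 2.23 kb, followed by a1 at 10.7 kb, bz1 at 18.7 kb and pl1 at 50.3 kb. The first 3 steps of this order are each smaller than the 10 kb window of the map, so these neighbours are not told apart, while pl1 was farther out than bz1 by more than a window. The median over ES genes was 72.3 kb, so all 4 ES members were nearer to a boundary than the median ES gene. Ordered by segment length, a1 at 90 kb was followed by c1 at 150 kb, pl1 at 170 kb, r1 at 280 kb and bz1 at 780 kb.

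The share of early sequence depended on how far around each gene it was taken. Within 50 kb ES took 100% around pl1, 68.7% around bz1, 52.2% around c1, 52.1% around r1 and 39.3% around a1, with a median of 60.6% over all classified protein-coding genes. Within 5 Mb on both sides it took 76.5% around r1 and 74.4% around a1, both above the upper quartile of all genes of 64.8%. That quartile is of the whole genome, whereas r1 and a1, like c1 and bz1, lie in the first or last 10% of a chromosome. There 78.9% of protein-coding genes were in ES, against 42.6% in the middle 80%, and no quartile was computed for genes near chromosome ends. ES took 43.1% around bz1, 39.8% around c1 and 38.6% around pl1, close to the median of 38.6%. The genes therefore changed order: a1 had the lowest share close by and the second highest at the widest range, and pl1 went from the highest to the lowest. Within 50 kb the shares follow from the classes and boundary distances above, so the near end of this order is not a separate result. c1 was lowest at 22.5% within 1 Mb. LS sequence appeared within 5 Mb of c1 only, at 0.202%.

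**Figure D3:**
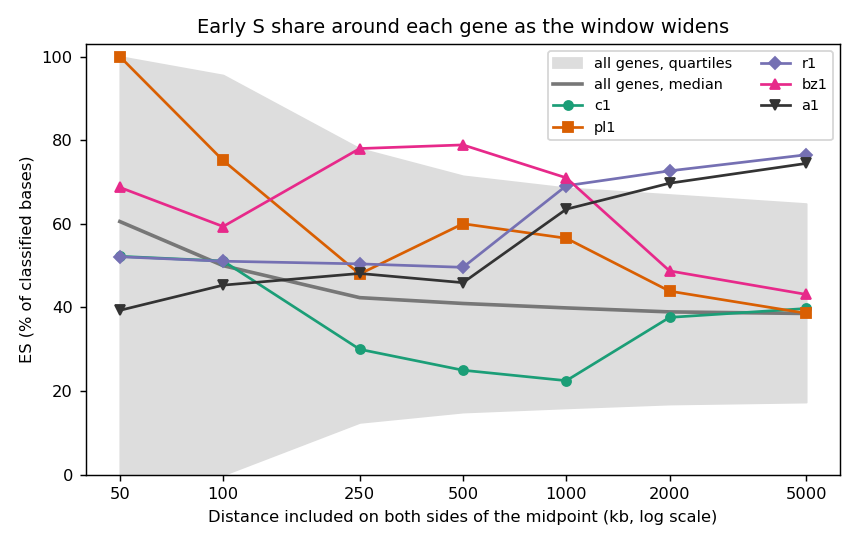
Share of ES in classified sequence (y axis, %) within 50 to 5000 kb on both sides of the midpoint (x axis, log scale), 1 line per gene, with the median (grey line) and quartiles (grey band) of all classified protein-coding genes. r1 and a1 rise to 76.5% and 74.4% at 5000 kb, while pl1, c1 and bz1 end between 38.6% and 43.1%, close to the median.

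c1 and bz1 share an arm of chromosome 9 and lay 2.00 Mb apart. The interval was classified throughout and held 16 segments with 15 boundaries: 5 of ES, 7 of ESMS and 4 of MS. ES took 45.6% of it, MS 38.4% and ESMS 16.0%, and there was no MSLS or LS. The interval was uneven: from c1 to the start of the bz1 segment the ES islands were 20 kb, 90 kb and 40 kb long and the MS segments 150 kb, 150 kb, 400 kb and 70 kb, and the remainder up to bz1 was the single 780 kb ES segment. Of the 44 protein-coding genes between c1 and bz1 32 were in ES, 6 in ESMS and 6 in MS. In ES were 54.8% of all classified protein-coding genes and 78.9% of those in the first or last 10% of a chromosome. The bz1 segment alone held 28 other protein-coding genes, counted on both sides of bz1. Both genes are thus early, but in separate segments with mid S sequence between them. Windows of 2000 kb or more around them overlap, so their values at that range are not independent.

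**Figure D4:**
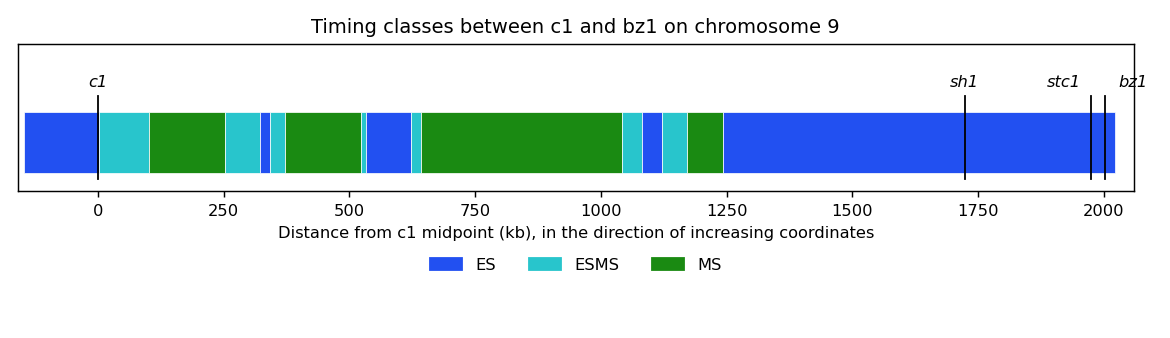
Timing classes between c1 and bz1 on chromosome 9 against the distance from the midpoint of c1 (x axis, kb), from the start of the c1 segment to the end of the bz1 segment. The short ES islands next to c1 give way to the 780 kb ES segment that holds sh1, stc1 and bz1.

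The other listed genes, a larger set than the 5, lay in ES, ESMS and MS, and in MSLS for 1 gene matched to a2 only. They include genes known for other roles, such as mrp4, myb31 and myb42, so the set is wider than the flavonoid pathway. A list of 39 symbols (the 5 genes and 34 others) was matched without regard to case, and 19 symbols were found, at 21 genes, since a2 and pac1 each matched a pair of genes. Of the 20 genes with a class 13 were in ES (65.0%, beside 54.8% of all), 3 in ESMS, 3 in MS, 1 in MSLS and none in LS. Without the 5 genes, 9 of 15 were in ES, 2 in ESMS, 3 in MS and 1 in MSLS. Within 500 kb of the midpoint 5 of the 16 other genes had LS sequence, and none of the 5 had, beside 28.3% of all classified protein-coding genes. Neither count was tested. Those with LS were vp1 and both genes matched to pac1 and to a2, so they are not 5 separate loci. The pac1 pair lie side by side with nearly the same surroundings, and 1 of the a2 matches is of unexplained name. The median share of ES within 500 kb was 35.9% around the 16 and 49.6% around the 5, beside 41.0% over all classified protein-coding genes.

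The 11 structural genes, a1 and bz1 included, had 6 in ES (54.5%, beside 54.8% of all), 2 in ESMS, 2 in MS and 1 in MSLS, a share in ES close to that of the background. The 11 count both genes matched to a2, and mrp4, which is known for another role. The 1 in MSLS is the a2 match of unexplained name, so the share depends on which matches are kept. c2, the chalcone synthase of the kernel, was in an MS segment of 230 kb on chromosome 4 with 1.00% ES and 78.0% MS around it. Its duplicate whp1 was also in MS, in a segment of 70 kb on chromosome 2, but with 54.5% ES around it. chi1, chalcone isomerase, lay in an ES segment of 560 kb on chromosome 1. fht1, flavanone 3-hydroxylase, lay in an ES segment of 3.73 Mb on chromosome 2, 1073 kb from its nearest boundary, with ES alone within 500 kb. a4 was in an ES segment of 210 kb on chromosome 3, and bz2, the glutathione S-transferase needed to move the pigment into the vacuole, in one of 120 kb on chromosome 1.

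The gene a2 encodes anthocyanidin synthase, the step between a1 and bz1, and is on chromosome 5 of the classical map. The match on chromosome 5 was in an ESMS segment of 50 kb with 15.5% ES and 5.93% LS around it. A second gene with the synonym a2, on chromosome 9, was in MSLS with 57.0% LS around it, the latest of the list, and the table does not say why it carries that name. mrp4, a transporter known for its part in phytic acid storage, was in an ES segment of 710 kb. The precursor gene pal1, phenylalanine ammonia-lyase, was in an ES segment of 120 kb on chromosome 5.

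Of the regulators outside the 5, vp1, a B3 factor of seed maturation that activates c1, was in an ES segment of 200 kb on chromosome 3, with 18.9% LS around it and the nearest LS at 0.155 Mb. The pair of genes matched to pac1, which is known as a WD40 protein, lay side by side on chromosome 5 on both sides of a boundary, one in a 20 kb ES segment at 0.052 kb from its edge and the other in ESMS. myb31, known as a repressor of lignin genes, was in an ES segment of 840 kb on chromosome 2, and myb42, a related repressor, in an MS segment of 350 kb on chromosome 4. p1, the MYB regulator of the red phlobaphenes, had no class: it lay in a gap of 140 kb on chromosome 1, from 47920001 to 48060000, with MS on both sides. The treatment of reads with several matches in the genome is not stated in the labels or the file header.

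**Figure D5:**
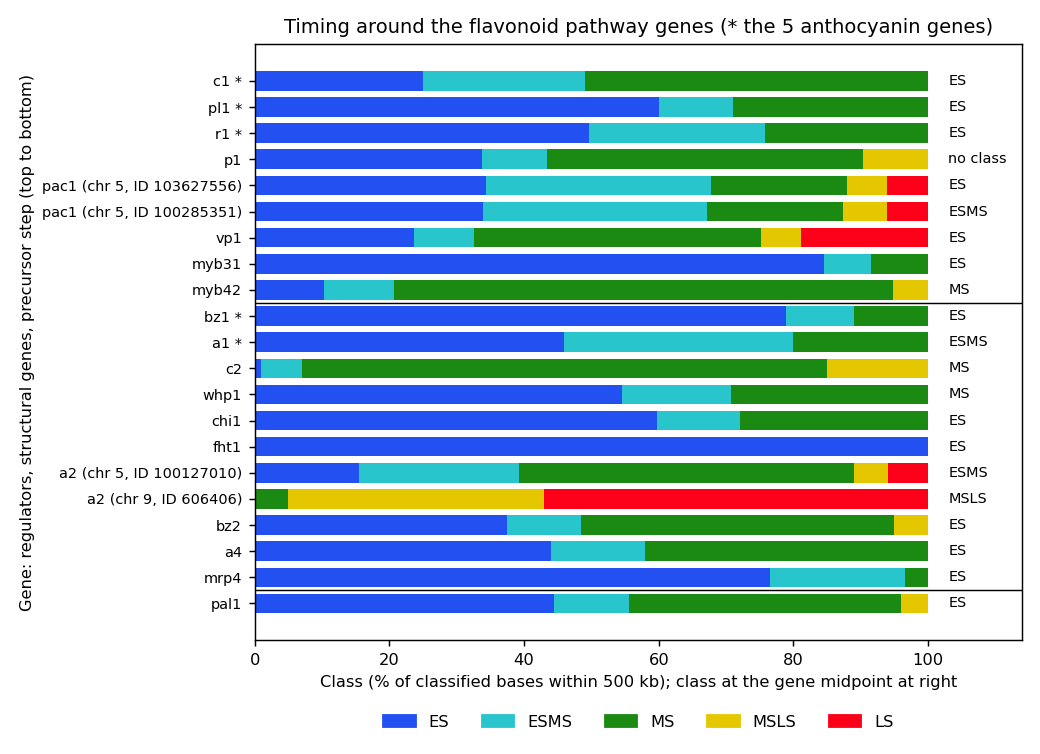
Share of each class in the classified sequence within 500 kb of each pathway gene (x axis, %), 1 bar per gene, with regulators above, structural genes in the middle and the precursor gene below, the class at the midpoint at the right, and the 5 anthocyanin genes starred. LS (red) appears around 5 bars, those of vp1 and of both genes matched to pac1 and to a2, and around none of the starred genes.

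Genes with a like pattern were looked for among the 216 protein-coding genes whose table symbol is not a locus identifier, by the share of windows within 500 kb that carry the same class. For bz1 the closest were IDP351 on chromosome 3 with 82.2% of 101 windows, ms32 on chromosome 2 with 81.2% of 101 and sbp18 on chromosome 8 with 79.8% of 99. For r1 they were sfp5 on chromosome 9 with 70.1% of 97 windows, pht10 on chromosome 1 with 69.1% of 94 and ct2 on chromosome 1 with 63.0% of 100. For a1 the same genes came up, sfp5 with 63.3% of 98, ct2 with 61.4% of 101 and pht10 with 57.9% of 95. At their own midpoints ct2 and pht10 were in ES and sfp5 had no class, so none shared the ESMS class of a1.

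For pl1 the closest genes were sbp17 on chromosome 1 with 67.3% of 101 windows, PER42 on chromosome 7 with 64.4% and IDP351 with 63.4%. For c1 they were ub2 on chromosome 1 with 59.4% of 96 windows, the lowest first match of the 5 genes, and ub3 on chromosome 4 and opr2 on chromosome 9 with 58.4% of 101 each. The median over the candidates was 28.9% to 35.6%, depending on the gene.

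Few named genes lie close to the 5, because most genes of the table carry locus identifiers. The nearest with a given symbol were sbp21, in ES 600 kb above r1, MIR171k, in ESMS 1219 kb below r1, IDP351, in ES 1759 kb above a1, MIR319a, in ES 4035 kb below a1, and opr3, in MS 1987 kb above pl1. MIR156k was in MS 13924 kb below pl1. opr1, in ESMS, and MIR396b, in ES, were the nearest on the lower and higher side of both c1 and bz1, at 2526 kb and 5887 kb from c1 and at 4529 kb and 3884 kb from bz1.

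The position of a gene on the map rests on the reference table having the same coordinates as the deposited file, whose build neither the labels nor the file header names. The correlation of gene counts with ES over 10 kb windows was highest with the genes shifted by 10 kb or less on each of the 10 chromosomes. Within 10 Mb on both sides of each gene it peaked at no offset for c1 and bz1 (r = 0.163 and 0.169 across windows), at 10 kb for pl1 (r = 0.112) and at -10 kb for r1 (r = 0.166), where a negative offset moves the genes to lower coordinates. For a1 it peaked at -30 kb with a low r of 0.0996, against 0.0686 at no offset. At those offsets pl1 would stay in ES, r1 would be in ESMS and a1 in ES. The classes of r1 and a1, and of c1 and bz1 near their boundaries, are therefore only as firm as this match, while pl1 kept its class when moved 20 kb either way.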

How the data were processed

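Per the labels' protocols, 12 libraries were sequenced, 3 biological replicates each of G1 and of early, mid and late S, and groups were taken from the sample titles. Bowtie2 2.5.1, SAMtools 1.9 and Trimmomatic 0.39 appear in the submitters' processing notes, with no role or order. Not given in the sources used here are the tool and thresholds of the segmentation, the genome build and whether replicates were pooled. The deposited file holds timing classes in 10 kb windows, per the file headers, with no signal or count, so depth is unknown and no sampling error, p-value or replicate spread could be computed.

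Gene positions were those of RefSeq for Zm-B73-REFERENCE-NAM-5.0, a table without strand, exons or sequence, and genes were matched by symbol or synonym without regard to case. No gene coordinate is printed. A gene took the class at its midpoint, and shares are of classified bases. Percentages of genes with lower values are over protein-coding genes of the stated class. Named were the 5 genes, every located gene of the pathway list, the nearest genes with a given symbol on both sides, and the 3 with the most identical windows (at least 80 compared, over 1 Mb away). The landmarks sh1, stc1, rpl35A, x1 and sh2 were added later. The members and lists were chosen with earlier results of these data known. Lookups were tested on simulated data. Alternatives covered the position within the gene, joined classes, short segments, window width, symbol matching and shifted coordinates. The software was numpy 2.4.6, matplotlib 3.10.9 and pandas 2.3.3 under Python 3.11.15.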

Additional observations from a re-analysis of the deposited data

How the results depend on the processing

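Classes at the 5 genes, ordered from 1 (ES) to 5 (LS), were unchanged in 20 of 25 alternatives. The shifts of gene positions by 20 kb in both directions were chosen after seeing the data, as was leaving out the symbols that match 2 genes. r1 moved to step 2 at its lower end and when moved 20 kb lower. Moved 20 kb higher, c1 went to step 2 and bz1 to step 3, which left 2 of the 5 in ES. a1 went to step 1 when moved 20 kb lower. With ESMS joined to ES and MSLS to LS, segment lengths became 260 kb (c1), 210 kb (pl1), 1340 kb (r1) and 610 kb (a1), and distances to a boundary 102 kb, 80.3 kb, 122 kb and 161 kb, by construction; bz1 did not move. The share of ES within 250 kb was 30.0% for c1, 48.0% for pl1 and 48.1% for a1. Within 1 Mb it was 22.5% for c1, 56.6% for pl1, 69.1% for r1, 71.0% for bz1 and 63.5% for a1. With ESMS counted as ES it was 49.0%, 71.0%, 75.8%, 89.0% and 79.9% in the same order. Of the 21 genes of the pathway list 9 to 13 were in ES with other gene positions or short segments left out, beside 54.8% of all classified protein-coding genes. With ESMS counted as ES the number was 16, beside 66.6% of all in either class. Without the symbols that match 2 genes it was 12 of 17. With official symbols only it was 0, where a1 alone was left. The other values moved by no more than a 10 kb window, 1 percentage point or 1.5 times in a count (51 of 79 in all). No paired analysis was possible because the file has no column per library. Depth limits could not be assessed.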
